A study of Mus musculus with 2 samples.

Results

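Forkhead transcription factors were described in embryonic mouse heart by total RNA sequencing. Members were all genes that GENCODE M21 annotates as protein-coding and names Fox, a letter from a to s, and a digit, provided that the identifier occurred in the gene table of both libraries. The rule found 44 genes among 21474 protein-coding genes. It used names only and no measured value.

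Each of the 2 libraries came from a pool of hearts of healthy male and female embryos of strain B6NCrl at day 16.5 of gestation, numbered biological replicates 1 and 2. The label of replicate 2 counts 41 embryos in its pool, and the label of replicate 1 gives no number. Both samples carry 1 donor identifier and separate biosample identifiers, so the spread between them may be partly technical. There was 1 group, with no treatment or genotype contrast. With 2 libraries the smallest p of an exact two-sided sign-flip test is 0.5. No test was therefore made, and every difference described is one between these pools. Levels are in TPM, which states the abundance of a transcript relative to all others after correction for its length. Log2 ratios are replicate 2 over replicate 1 of TPM + 0.1. They are relative to the bulk of the genes: spike-in RNAs took 1.62% and 3.41% of the counts, and scaling to them moves the median log2 ratio of expressed protein-coding genes from −0.06 to −1.10 and each gene with it.

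The libraries held 37160624 and 40360242 estimated counts, of which 17893 and 17303 lay on forkhead genes. Markers of heart cells were present in both pools. None of the 6 cardiomyocyte, 6 endothelial, 4 endocardial, 6 pericyte, 5 fibroblast or 5 epicardial markers was more than 2-fold apart. Of protein-coding genes with a mean of at least 100 counts, 2.08% were. The fibroblast list had the lowest median log2 ratio of these 6 lists, −0.36, with 4 of its 5 genes lower in replicate 2. RNA of neighbouring organs was also present and unequal between the pools. The 10 lung epithelial markers summed to 1128 TPM in replicate 1 and 221 TPM in replicate 2, with the surfactant gene Sftpc at 883 and 96.7 TPM. The 8 thymocyte markers summed to 110 and 286 TPM, and the 7 thymic epithelial markers to 109 and 217 TPM. In bulk tissue, fewer cells of a type and less RNA per cell cannot be told apart.

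Forkhead proteins bind DNA through a winged-helix domain, whose recognition helix lies in the major groove of the target site. Members share this domain and differ outside it, and they act as pioneer factors, activators or repressors. In the heart, FOXP1 and FOXM1 are known for their roles in cardiomyocyte proliferation, the FOXC factors for vessel and outflow tract formation, and the FOXO factors for linking insulin signalling to growth and stress responses. Other members are classic regulators of foregut, lung, cilia, thymus and T cells.

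The coding sequence of the recognition helix shows what the family shares. A stretch of 42 bases around it, encoding 14 residues, was found in the reference transcripts of 42 of the 44 members. The search asked for tryptophan at the start, allowed a few residues at each of the next 4 positions, and fixed the core except for asparagine or serine in its middle and serine or threonine at its last. What it fixed is therefore not a finding, and that Foxr1 and Foxr2 gave no match says only that these codons were not in their reference transcripts. The sequences below are the coding strand of the GRCm38 reference, 5′ to 3′, for expressed members of the FOXN, FOXM and FOXO subfamilies and for the close pair Foxf1 and Foxf2. Capitals mark the 15 bases that encode the 5 core residues, arginine, histidine, asparagine, leucine and serine in most members.
Foxn3: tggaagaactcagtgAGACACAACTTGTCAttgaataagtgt
Foxm1: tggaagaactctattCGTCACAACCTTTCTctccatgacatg
Foxo1: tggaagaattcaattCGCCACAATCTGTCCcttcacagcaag
Foxf1: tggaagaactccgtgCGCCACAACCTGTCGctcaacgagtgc
Foxf2: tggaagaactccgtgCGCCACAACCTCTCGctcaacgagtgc

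Within what the search allowed, 37 of the 42 members encoded these core residues. Foxe1 and Foxe3 encoded threonine as the last one. Foxf1 and Foxf2 differed at 1 of 42 bases and Foxn2 and Foxn3 at 12, with 0 of 14 residues different in either pair. Identity did not follow the subfamily names throughout. Foxo1 and Foxo3 differed at 1 residue, as did Foxo3 and Foxo4, whereas Foxc1 and Foxl1, and Foxc2 and Foxs1, differed at 0. Foxo1 and Foxm1 differed at 2 residues and 11 bases. The codons lay in 1 exon in 28 members and were split by an intron in the other 14, which were the FOXJ, FOXK, FOXM, FOXO and FOXP genes. In Foxf1 the stretch is at chromosome 8, 121084672 to 121084713, plus strand, in exon 1 of 2. In Foxf2 it is at chromosome 13, 31626509 to 31626550, plus strand, in exon 1 of 2, and in Foxn3 at chromosome 12, 99388391 to 99388432, minus strand, in exon 2 of 6. The split codons of Foxm1 span chromosome 6, 128369480 to 128370992, plus strand, in exons 4 and 5 of 8, and those of Foxo1 span chromosome 3, 52269417 to 52345074, plus strand, in exons 1 and 2 of 3.

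This kinship did not reach the length over which reads are assigned. No member shared a run of 100 bases of its GENCODE M21 transcripts with another member. Of the 44, 10 shared such a run with a gene outside the family and 34 shared none. The largest share was in Foxq1, where 65.4% of the runs are also in the opposite-strand gene A530084C06Rik. Its transcript has 4843 bases in M21 and 2653 in the authors’ annotation, so the share in the quantified transcript may differ. Among the others reported here, the share was 15.5% in Foxp3, 11.1% in Foxb1 and 5.73% in Foxo1, and at most 1.66% in 5 more. Whether reads were assigned by strand is not given in the sources used here. Reads of Foxq1, Foxb1, Foxo1, Foxp3, Foxj2 and Foxe1 and of genes on their opposite strand therefore cannot be told apart in those stretches.

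Of the 44 forkhead genes, 18 reached 1 TPM in both libraries, which is 40.9% against 59.1% of all protein-coding genes. Foxa2, Foxc1 and Foxf2 reached 1 TPM in replicate 1 only, and 23 genes stayed under 1 TPM in both. Counts were 0 in both libraries for 5 genes, 11.4% of the family, against 17.0% of protein-coding genes. The summed level of the family was 221.66 TPM in replicate 1 and 186.2 TPM in replicate 2. A few genes made up most of it: Foxp1, Foxn3, Foxm1, Foxj3 and Foxn2 held 69.3% and 72.9%. The 18 genes at or above 1 TPM had a median mean level of 4.92 TPM, compared with 15.9 TPM for the 12689 protein-coding genes that met the same rule.

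**Figure D1:**
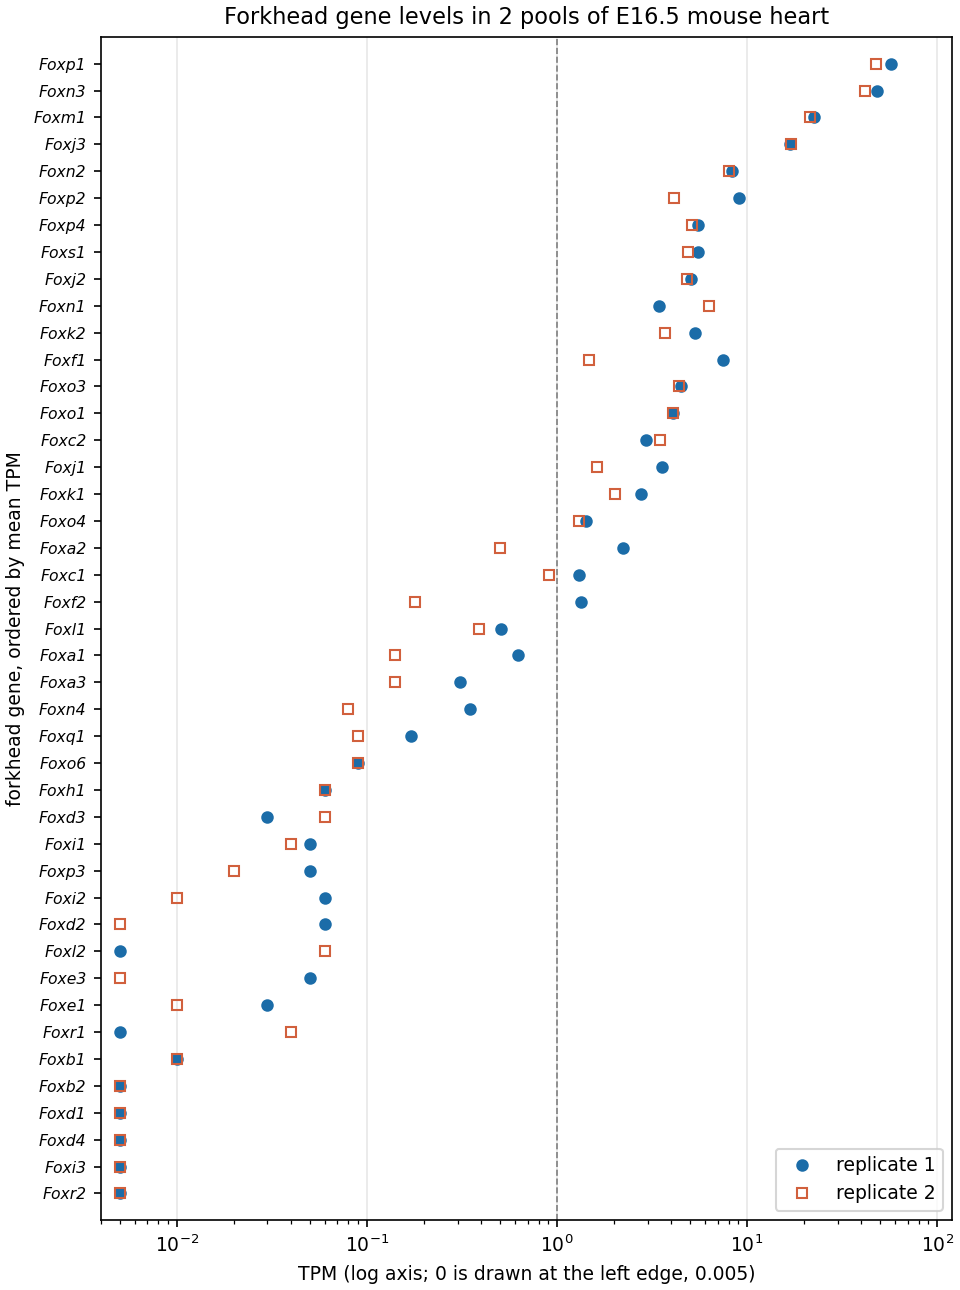
Level of 43 of the 44 forkhead genes in TPM on a log axis, ordered by mean level, with filled circles for replicate 1 and open squares for replicate 2. The dashed line marks 1 TPM, values of 0 are drawn at the left edge, and the 18 genes above the line in both libraries run from Foxp1 at 57.5 and 47.4 TPM to Foxo4 at 1.43 and 1.31 TPM.

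The order of levels was firm only where steps were large. Neighbours were called separated where both libraries gave the same order and the authors' credibility intervals overlapped in neither. Of the 17 neighbouring pairs among the 18 genes, 4 were separated: Foxn3 over Foxm1, Foxm1 over Foxj3, Foxj3 over Foxn2, and Foxk1 over Foxo4. Foxp1 and Foxn3 at the top were not separated, nor were any neighbours from Foxn2 down to Foxk1. The order is one of TPM. By estimated counts Foxn3 had 2210 and 2170 and Foxm1 had 2115 and 2253, so their order differed between the libraries.

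The FOXP subfamily held the largest share of forkhead TPM, 32.5% in replicate 1 and 30.5% in replicate 2. FOXP proteins repress transcription as dimers with one another. Foxp1 (ENSMUSG00000030067.13; chromosome 6, 98925338 to 99522721, minus strand) was at 57.5 TPM in replicate 1 and 47.4 TPM in replicate 2, from 3708 and 3542 counts. It was 1.21-fold higher in replicate 1, with a 95% counting interval of 1.16 to 1.27. Its mean transcript length in the authors’ tables was 2514 bases in replicate 1 and 2618 in replicate 2, and on TMM-scaled counts without length correction its log2 ratio was −0.17 in place of −0.28. Foxp4 (chromosome 17, 47867133 to 47924645, minus strand) was at 5.53 and 5.16 TPM, which put Foxp1 10.4-fold and 9.19-fold above it. Both were within 1.5-fold between the pools, whereas Foxp2, described with the lung-associated members, was not. All 13 genes of the list of FOXP corepressors reached 1 TPM in both libraries, against 59.1% of protein-coding genes. None of the list was more than 2-fold apart, against 2.08% of protein-coding genes with a mean of at least 100 counts. The listed genes belong to the NuRD deacetylase complex and the CtBP family. The highest were Rbbp7 (372 and 394 TPM), Rbbp4 (215 and 231), Ctbp1 (165 and 158) and Hdac2 (120 and 130).

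FOXN genes came next, with 27.3% and 30.2% of forkhead TPM, and most of it came from Foxn3. Foxn3 (ENSMUSG00000033713.7; chromosome 12, 99190078 to 99563582, minus strand), a transcriptional repressor, was at 48.5 and 41.9 TPM from 2210 and 2170 counts. Foxn2 (chromosome 17, 88440711 to 88490533, plus strand), its closest relative, was at 8.35 and 8.01 TPM. In TPM, Foxn3 thus stood 5.80-fold and 5.23-fold above Foxn2, and the intervals of the pair overlapped in neither library. By estimated counts the step was smaller, since Foxn2 had 1029 and 1139. Mean transcript length in the authors’ tables was 1807 and 1846 bases for Foxn3, against 4712 and 4895 for Foxn2. The 566-base transcript Foxn3-205 held 30.7% and 24.6% of Foxn3 TPM from 185 and 143 counts. Lengths of Foxn3 transcripts differ between annotations. The leading Foxn3-201 has 2803 bases in the authors’ annotation and 7705 in GENCODE M21, and Foxn3-205 has 566 and 696. Foxn2-201, which leads in Foxn2, has 5085 in both. Levels and counts of Foxn3 rest on the shorter versions, so the size of its step over Foxn2 depends on the annotation. The FOXN pair shared all 14 residues of the helix stretch shown above while differing at 12 of its bases.

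Foxm1 (ENSMUSG00000001517.10; chromosome 6, 128362967 to 128376146, plus strand) activates genes needed to enter and complete mitosis. It was at 22.4 TPM in replicate 1 and 21.3 TPM in replicate 2, from 2115 and 2253 counts, and its log2 ratio was −0.07. All 16 genes of a list of its known mitotic targets reached 1 TPM in both libraries, against 59.1% of protein-coding genes. Their log2 ratios lay between −0.10 and 0.11. None of the list was more than 2-fold apart, against 2.08% of protein-coding genes with a mean of at least 100 counts. The highest were the kinase gene Cdk1 (279 and 301 TPM), its partner Cks1b (241 and 241), the survivin gene Birc5 (190 and 194) and the cyclin gene Ccnb1 (156 and 163).

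The FOXJ genes without a ciliary role were even as well. Foxj3 (chromosome 4, 119537004 to 119629119, plus strand), known as an activator of Mef2c in skeletal muscle, was at 16.9 and 17.1 TPM. Foxj2 (chromosome 6, 122819914 to 122845366, plus strand) was at 5.08 and 4.86 TPM. Foxj3 was 3.32-fold and 3.52-fold above Foxj2.

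FOXO proteins leave the nucleus when AKT phosphorylates them and activate stress, cell cycle arrest and atrophy genes when it does not. Foxo3 (chromosome 10, 42181841 to 42276755, minus strand) was at 4.49 and 4.40 TPM, and Foxo1 (chromosome 3, 52268336 to 52353221, plus strand) at 4.07 in both. The 2 genes were not separated. Foxo4 (chromosome X, 101254528 to 101260873, plus strand) was lower, at 1.43 and 1.31 TPM, 3.14-fold and 3.36-fold under Foxo3. Foxo6, best known from the brain, had 6 and 7 counts, or 0.09 TPM in both. FOXO RNA was thus carried by 3 of the 4 genes, with log2 ratios from −0.12 to 0.

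Genes around FOXO were broadly expressed. All 21 genes of the upstream list, from receptors through AKT to nuclear export, reached 1 TPM in both libraries, against 59.1% of protein-coding genes. None of them was more than 2-fold apart, against 2.08% of protein-coding genes with a mean of at least 100 counts. The highest were the 14-3-3 genes Ywhae (540 and 545 TPM) and Ywhaz (382 and 389), whose proteins hold FOXO in the cytoplasm, then Akt2 (70.2 and 65.5) and Insr (49.0 and 50.5). Of 21 known FOXO target genes, 20 reached 1 TPM in both, and Bcl6, a repressor, did not (0.68 and 0.94 TPM). None of the 21 targets was more than 2-fold apart, to be read beside the same 59.1% and 2.08%. The highest targets were the mitophagy gene Bnip3 (216 and 205 TPM), the autophagy gene Map1lc3b (166 and 196), Txnip (174 and 178) and the mitochondrial superoxide dismutase gene Sod2 (138 and 149). These are relative RNA levels and carry nothing on where FOXO proteins were in the cell.

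FOXK proteins bind the SIN3 and BAP1 repressor complexes. Foxk2 (chromosome 11, 121259990 to 121309896, plus strand) was at 5.31 and 3.68 TPM, and Foxk1 (chromosome 5, 142401497 to 142462011, plus strand) at 2.78 and 2.02 TPM. Both were lower in replicate 2, by 1.44-fold (95% counting interval 1.28 to 1.63) and 1.38-fold (1.21 to 1.56), and the deposited intervals of the 2 libraries did not overlap for either. These were the widest differences among the widely expressed members, and they stayed under 1.5-fold. By estimated counts, Foxk2 had 575 and 526 and Foxk1 had 545 and 440. The mean transcript length that the authors’ tables give Foxk2 was 4155 bases in replicate 1 and 4913 in replicate 2, and on TMM-scaled counts without length correction its log2 ratio was −0.23 in place of −0.52. All 10 genes of the list of FOXK partners reached 1 TPM in both libraries, against 59.1% of protein-coding genes. None of the list was more than 2-fold apart, against 2.08% of protein-coding genes with a mean of at least 100 counts. The highest were Sin3b (130 and 129 TPM), Ogt (91.5 and 84.5), Bap1 (47.1 and 43.3) and Suds3 (43.9 and 44.4).

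Together the 13 members grouped as muscle, cycle and widely expressed summed to 182 and 161 TPM, or 82.3% and 86.6% of forkhead TPM. Of these, the 12 at 1 TPM or more in both libraries were all within 1.5-fold between the pools, with log2 ratios from −0.52 to 0.02. Of all protein-coding genes at that level, 94.0% were within 1.5-fold. Groups were assigned by known role, with Foxp2 placed among the lung-associated members, so the evenness of this group may partly follow from the assignment.

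Members known from vessels and mesenchyme differed in how even they were between the pools. Foxs1 (ENSMUSG00000074676.2; chromosome 2, 152931898 to 152933208, minus strand), a pericyte marker, was at 5.53 and 4.87 TPM from 179 and 175 counts. Foxc2 (ENSMUSG00000046714.7; chromosome 8, 121116171 to 121118895, plus strand), which acts in vessel, lymphatic and outflow tract development, was at 2.95 and 3.49 TPM from 207 and 272 counts. Foxc1 (chromosome 13, 31806633 to 31812476, plus strand), its partner in the same processes, was at 1.30 and 0.91 TPM from 134 and 104 counts. Foxc1 was 1.43-fold higher in replicate 1 (95% counting interval 1.10 to 1.86), with deposited intervals that did not overlap. None of these 3 was more than 2-fold apart, as for the endothelial, endocardial and pericyte markers. Foxc2 was above Foxc1 by 2.27-fold and 3.84-fold, with intervals that overlapped in neither library.

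Foxf1 (ENSMUSG00000042812.5; chromosome 8, 121084386 to 121088144, plus strand), a hedgehog-responsive regulator of lung and gut mesenchyme and of lung endothelium, was the most uneven of the 18 expressed members. It was at 7.45 TPM in replicate 1 and 1.47 TPM in replicate 2, from 461 and 101 counts. The ratio was 5.07-fold (95% counting interval 4.08 to 6.35). Foxf2 (chromosome 13, 31625816 to 31631403, plus strand), a regulator of gut and palate mesenchyme and of brain pericytes, was at 1.34 and 0.18 TPM from 81 and 12 counts, a 7.44-fold ratio (4.04 to 15.0). Foxf1 was above Foxf2 by 5.56-fold and 8.17-fold. Both FOXF genes were thus higher in replicate 1, as were 4 of the 5 lung mesenchyme markers, which summed to 19.6 and 6.13 TPM: Tbx4 at 4.16 and 0.57 TPM, Wnt2 at 7.51 and 2.59, Hhip at 6.13 and 2.26, and Fgf10 at 1.72 and 0.64. The fifth, Nkx6-1, was at 0.06 and 0.07 TPM. The part of lung mesenchyme in the FOXF difference was not tested.

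Hedgehog signalling lies upstream of Foxf1. Of 9 genes of the pathway, 6 reached 1 TPM in both libraries, to be read beside 59.1% of protein-coding genes. Hhip, also a lung mesenchyme marker, was the one called more than 2-fold apart, against 2.08% of protein-coding genes with a mean of at least 100 counts. Smo was at 12.4 and 11.1 TPM, Gli3 at 4.74 and 3.45, and Ptch1 at 4.62 and 3.28. The ligand gene Shh was at 0.70 and 0.12 TPM, from 48 and 9 counts, under the count minimum of 100.

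Next to Foxf1 lies the noncoding gene Fendrr (chromosome 8, 121054882 to 121083110, minus strand), which is transcribed away from it with 1275 bases between them. Fendrr was at 3.13 TPM in replicate 1 and 0.93 TPM in replicate 2, from 130 and 42 counts, so it was higher in the same library as Foxf1, by 3.37-fold. Its mean count was under the minimum of 100, so it was not called. The 250 bases upstream of Fendrr, taken from RefSeq on GRCm38.p6 (chr8:121083111-121083360, minus strand), are shown because they lie between these 2 genes, which were both higher in replicate 1. They lie 1025 bases from the start of Foxf1 and overlap no annotated exon, and capitals mark a match to the forkhead motif TGTTTAC on the opposite strand.
Fendrr upstream: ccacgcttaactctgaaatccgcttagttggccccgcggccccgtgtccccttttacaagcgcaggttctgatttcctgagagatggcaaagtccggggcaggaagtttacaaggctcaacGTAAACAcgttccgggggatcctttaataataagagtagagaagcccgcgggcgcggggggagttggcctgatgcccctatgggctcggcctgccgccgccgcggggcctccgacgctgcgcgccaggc

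The window holds 23 CpG pairs, and the median over all windows of that length in the RefSeq table is 6. TGTTTAC or its reverse complement occurs in 3.17% of those 32851 upstream windows, so the match is a description of these letters only. Foxf1 itself has no window in the table.

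The other vessel and mesenchyme members were low. Foxl1 (chromosome 8, 121127940 to 121130644, plus strand), known from gut mesenchyme, had 35 and 30 counts, or 0.51 and 0.39 TPM. Foxq1, known for hair structure, had 11 and 7 counts, or 0.17 and 0.09 TPM, and shares most of its M21 transcript sequence with an antisense gene. Foxs1 was 32.5-fold and 54.1-fold above it. Foxd2 had 4 counts in replicate 1 and 0 in replicate 2. Foxd1, a marker of kidney stroma, had 0 counts in both, so this pair was not separated.

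The FOXA genes, pioneer factors of the foregut and of lung epithelium, had higher levels in replicate 1. Foxa2 (ENSMUSG00000037025.7; chromosome 2, 148042877 to 148046969, minus strand) was at 2.23 and 0.50 TPM from 114 and 29 counts, a 4.46-fold ratio (95% counting interval 2.95 to 6.96). Foxa1 (chromosome 12, 57540628 to 57546916, minus strand) was at 0.62 and 0.14 TPM from 51 and 13 counts, a 4.43-fold ratio (2.37 to 8.88). Foxa3, known from liver and gut, was at 0.31 and 0.14 TPM from 16 and 8 counts, and its interval, 0.894 to 5.98-fold, included no difference. Foxa2 was above Foxa1 by 3.60-fold and 3.57-fold, so the order of these 2 genes was the same in both pools while their levels were not.

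Foxp2 (ENSMUSG00000029563.12; chromosome 6, 14901349 to 15441977, plus strand) acts in distal lung epithelium and in the brain. It was at 9.03 TPM in replicate 1 and 4.15 TPM in replicate 2, from 1029 and 549 counts, a 2.18-fold ratio (1.96 to 2.42). Both TPM values lie below their own deposited intervals, 9.44 to 13.3 and 4.47 to 6.48. The deposited posterior mean TPM, which lies inside them, was 11.3 and 5.40. Foxp1 was above Foxp2 by 6.36-fold and 11.4-fold.

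All 10 lung epithelial markers were lower in replicate 2 and 7 of them were called more than 2-fold lower. Of protein-coding genes with a mean of at least 100 counts, 0.813% were called in that direction. Beside Sftpc these were led by Sftpa1 (18.9 and 1.17 TPM), Cldn18 (28.0 and 2.20) and Sftpb (23.2 and 2.28), and the lung and thyroid factor gene Nkx2-1 was at 6.73 and 0.91. The airway gene Scgb3a2 was more even, at 154 and 114 TPM. No marker of this list was at 0. The part of lung epithelium in the FOXA and Foxp2 differences was not tested.

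Foxj1 (ENSMUSG00000034227.7; chromosome 11, 116330704 to 116335399, minus strand) is the master regulator of motile cilia. It was at 3.57 TPM in replicate 1 and 1.63 TPM in replicate 2, from 241 and 122 counts, a 2.19-fold ratio (1.75 to 2.75). The 10 markers of ciliated cells summed to 11.6 and 8.73 TPM. Of these, 7 were lower in replicate 2, and none was called. Only 1 of them met the count minimum of 100. The highest were Rsph1 (3.41 and 2.88 TPM), Ccdc40 (3.40 and 2.53) and Tekt1 (2.13 and 1.32), and no marker of the list was at 0. Dnah9 (0.16 and 0.30 TPM) and Sntn (0.20 and 0.30) were higher in replicate 2, and Cfap53 was at 0.42 TPM in both. The part of ciliated cells in the Foxj1 difference was not tested.

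Foxn1 (ENSMUSG00000002057.4; chromosome 11, 78357577 to 78386558, minus strand) is required for thymic epithelium to form and support T cells. It was at 3.45 TPM in replicate 1 and 6.27 TPM in replicate 2, from 287 and 579 counts. This was the reverse of the lung-associated members: Foxn1 was 1.82-fold higher in replicate 2 (95% counting interval 1.57 to 2.10), short of the 2-fold rule, with deposited intervals that did not overlap. Scaled to spike-ins its log2 ratio was −0.19, which is negative but still above the shifted median of −1.10. All 7 thymic epithelial markers were higher in replicate 2, and 5 of them more than 2-fold. Of protein-coding genes with a mean of at least 100 counts, 1.27% were called in that direction. Prss16, a thymic protease gene, was at 52.9 and 109 TPM, the chemokine gene Ccl25 at 29.5 and 59.4, the thymoproteasome gene Psmb11 at 7.91 and 17.6, Trp63 at 3.84 and 7.84, and Aire at 1.12 and 2.39. Krt5 (9.54 and 13.7 TPM) and Krt14 (4.23 and 6.24) were also higher without passing 2-fold. The part of thymic epithelium in the Foxn1 difference was not tested.

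Foxp3, the defining factor of regulatory T cells, was near the floor of detection with 4.87 and 2.36 estimated counts, or 0.05 and 0.02 TPM. T cell RNA was present in both pools. All 8 thymocyte markers were higher in replicate 2 and 7 were called, against 1.27% of protein-coding genes with a mean of at least 100 counts. They were led by Cd8a (0.96 and 7.34 TPM), Rag2 (3.15 and 10.4), Cd3e (16.9 and 48.7) and Cd3g (31.0 and 78.5). Lck, the highest, was at 38.4 and 95.9 TPM. Of the 4 other regulatory T cell markers, Il2ra (7.23 and 16.9 TPM) and Ctla4 (1.33 and 2.78) were more than 2-fold higher in replicate 2, to be read beside the same 1.27%. Ikzf2 (2.54 and 3.66) and Tnfrsf18 (1.94 and 2.08) were not. In the 2 forkhead genes of the thymus, therefore, only the epithelial one had a level that could be compared.

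The remaining 15 members, known from the early embryo or from other organs, summed to 0.75 and 0.61 TPM, and none reached 1 TPM. Foxn4, known from the retina and spinal cord, had 24 and 6 counts. Foxh1, which carries Nodal signals with SMAD2 in the early embryo, had 2 counts in each library. Of the 10 genes measured in its pathway, 6 reached 1 TPM in both, a share close to the 59.1% of protein-coding genes. They were led by Smad2 (26.3 and 27.7 TPM), Smad3 (11.4 and 9.94), Smad4 (9.12 and 7.89) and Acvr2a (8.37 and 7.55). Nodal itself was at 0.04 and 0.12 TPM. Gdf1 was not matched and is not analysed here.

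Foxd3, a neural crest factor, had 2 and 4 counts, Foxi1 3 and 3, Foxi2 4 and 1, Foxe1, a thyroid factor, 2 and 1, and Foxb1 1 and 1. Foxl2, the ovary factor, and Foxr1 had 0 counts in replicate 1 and 2 in replicate 2, and Foxe3, the lens factor, had 1 and 0. With Foxd1, the genes Foxb2, Foxd4, Foxi3 and Foxr2 had 0 counts in both libraries. A count of 0 allows up to 3 counts, which for these 5 genes is 0.0369 to 0.0983 TPM in replicate 1 and 0.0333 to 0.0885 TPM in replicate 2, counting error only. The reads carry no molecular identifiers that would count single molecules, and counting intervals therefore leave out amplification. None of these 13 genes can be ordered at this depth.

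Across the family, the differences between the pools that were called at 2-fold all lay on one side. A gene was called more than 2-fold apart where the mean was at least 100 counts, TPM + 0.1 differed by over 2-fold, and the deposited intervals did not overlap. Foxf1, Foxp2 and Foxj1 were called, 3 of the 19 forkhead genes that met the count minimum (15.8%), against 2.08% of the 12296 protein-coding genes that met it. All 3 were lower in replicate 2, where 0.813% of protein-coding genes were called. None was higher in replicate 2, where 1.27% were. With TPM + 1 in place of TPM + 0.1, Foxf1 alone stayed past 2-fold, and Foxp2 (log2 ratio −0.96) and Foxj1 (−0.80) did not. With a count minimum of 10, Foxa1, Foxa2 and Foxf2 were added, which made 6 of 26 genes (23.1%) against 3.25% of 15180. Again all were lower in replicate 2, as were 1.28% of protein-coding genes, and none was higher, as were 1.98%. This one-sidedness depended on the 2-fold limit. At 1.5-fold and 100 counts, 4 members were called, and the added one, Foxn1, was higher in replicate 2. The share of all protein-coding genes at 1.5-fold was not computed. No test of these shares was made, since the members were chosen with results of these libraries known.

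**Figure D2:**
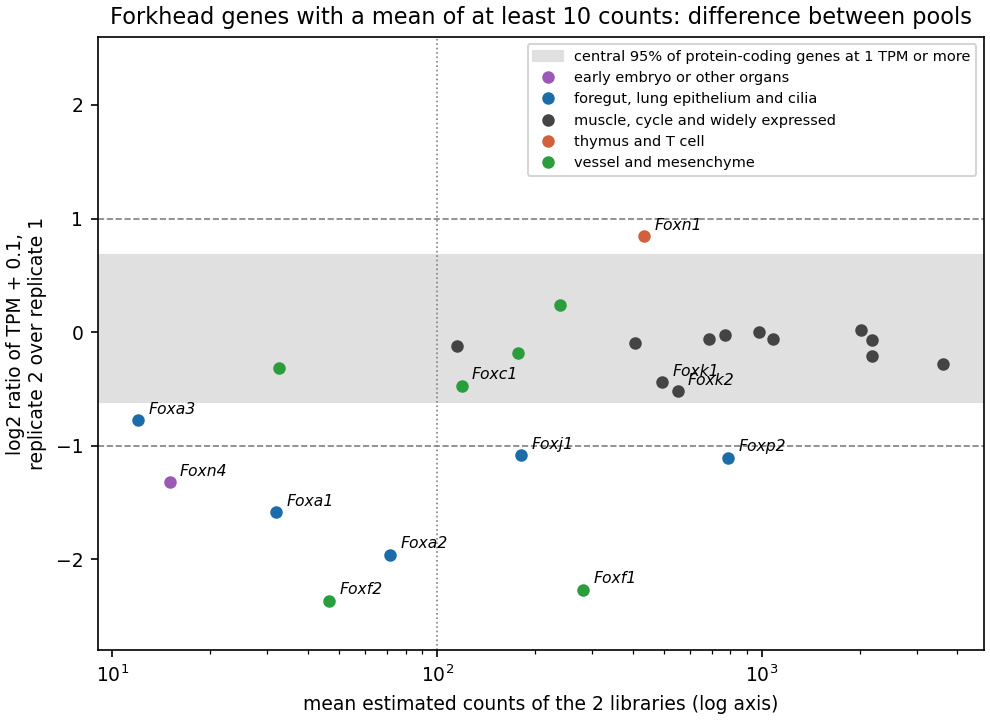
Log2 ratio of TPM + 0.1, replicate 2 over replicate 1, against mean estimated counts on a log axis for 25 of the 26 forkhead genes with a mean of at least 10 counts, coloured by role. The grey band is the central 95% of protein-coding genes at 1 TPM or more (−0.62 to 0.68), dashed lines mark 2-fold, the dotted line marks 100 counts, and Foxf1, Foxp2 and Foxj1 lie below the lower dashed line on its right.

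The median log2 ratio of the 18 expressed members was −0.11, against −0.06 for all protein-coding genes at that level, whose SD was 0.33. The middle of the family thus lay close to that of other genes, and the calls came from its edge, with ratios from −2.27 for Foxf1 to 0.84 for Foxn1. Within 1.5-fold were 14 of the 18. The other 4 were Foxf1, Foxp2, Foxj1 and Foxn1.

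**Figure D3:**
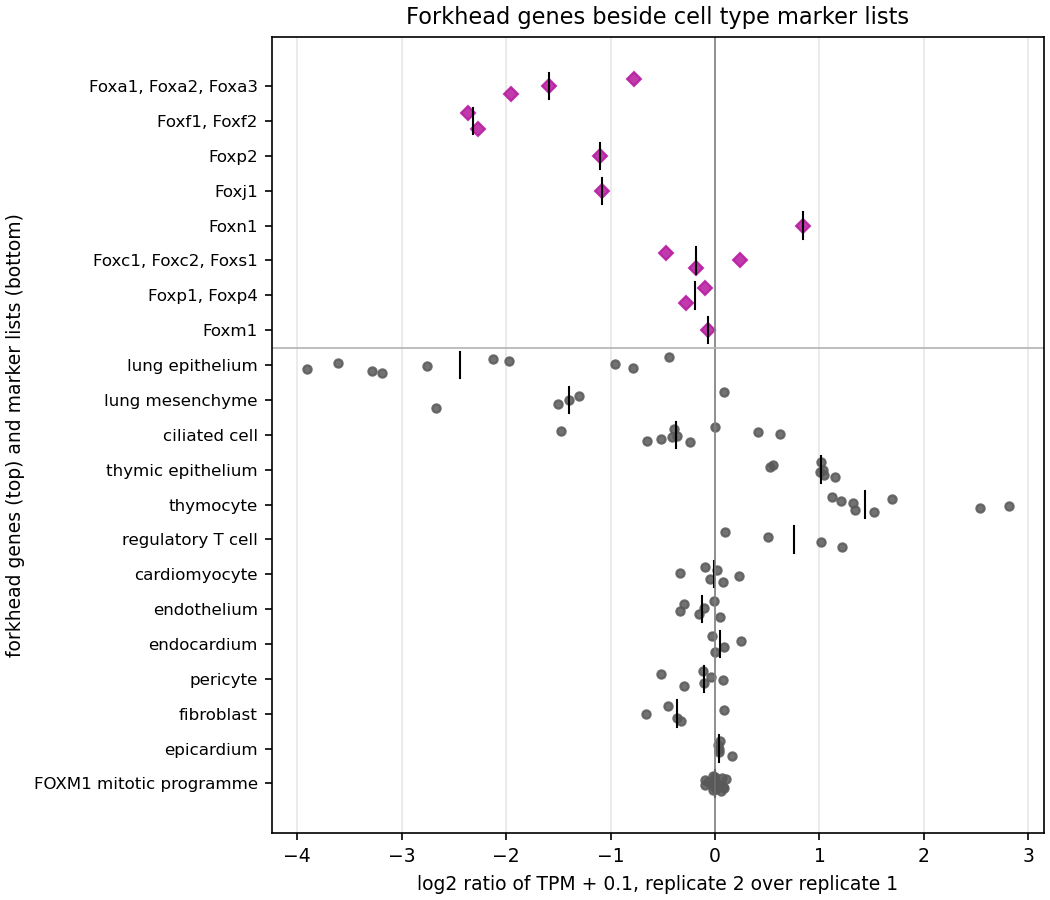
Log2 ratio of TPM + 0.1, replicate 2 over replicate 1, for forkhead genes (diamonds, top) and for the genes of marker lists (circles, bottom), 1 point per gene, with a black bar at the median of each row. FOXA, FOXF, Foxp2 and Foxj1 lie left of 0, as do the lung lists except Nkx6-1. The ciliated cell list has genes on both sides, 7 of its 10 left of 0 and 2 right of it. Foxn1 lies right of 0 as do the thymus lists (on spike-in scaling Foxn1 is at −0.19 and all genes shift left). The heart cell lists and the mitotic list lie nearer 0, the fibroblast list with a median of −0.36.

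Most of the family pairs compared were expressed at unequal levels. Of 12 such pairs, 10 were separated in both libraries by the interval rule used above for neighbours, all in the same order in both. The exceptions were Foxo1 with Foxo3 and Foxd1 with Foxd2. The widest step was Foxs1 over Foxq1, a pair that differed at 3 of the 14 helix residues and in which Foxq1 had few counts, then Foxp1 over Foxp4 and Foxp1 over Foxp2. The narrowest of the separated steps was Foxk2 over Foxk1, 1.91-fold and 1.82-fold.

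Transcript estimates gave the part of each gene's TPM on transcripts that encode the helix. In all 18 expressed members the transcript with the highest share of TPM was protein-coding, was the same in both libraries and held the helix codons. Foxc2, Foxf1, Foxj1, Foxk1, Foxn1, Foxo1 and Foxs1 have a single transcript in the tables, so for these 7 the annotation fixed the outcome. It could differ only in the 11 with several transcripts. The same share over all protein-coding genes was not computed. Transcripts whose coding part holds the helix codons made up at least 90% of the gene's TPM in both libraries for 9 of the 18. They were these 7, Foxj2 and Foxo4. Both Foxj2 transcripts hold the codons, so its share was also fixed. Shares between similar transcripts are estimates, and short transcripts weigh more in TPM than in counts.

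**Figure D4:**
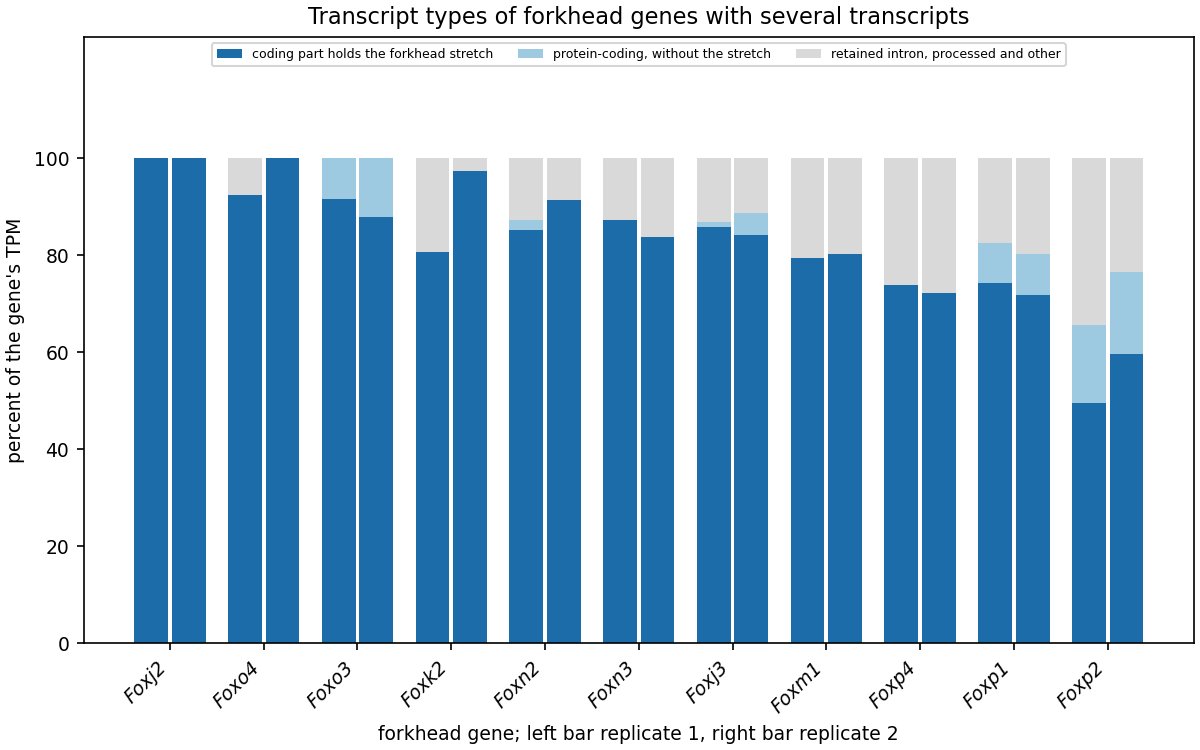
Stacked bars of transcript classes as percent of the gene's TPM for the 11 forkhead genes with several transcripts, left bar replicate 1 and right bar replicate 2. Dark blue is transcripts whose coding part holds the helix codons, light blue other protein-coding transcripts, and grey retained introns, processed transcripts and the rest; the dark share falls from 100% in Foxj2 to 49.5% and 59.7% in Foxp2.

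Foxp2 had the lowest share of helix-coding transcripts, 49.5% in replicate 1 and 59.7% in replicate 2. Its leading transcript Foxp2-207 held 42.9% and 33.3%. Foxp2-203, protein-coding without the helix codons, held 16.1% and 16.9%, and retained-intron transcripts held 22.6% and 13.7%. Foxp1 was split over 32 transcripts, of which 23 had counts, and 74.2% and 71.7% of its TPM encoded the helix. Foxp1-225 led in TPM with 48.4% and 35.5%. By estimated counts the longer Foxp1-204 led, with 1591 and 877 against 1299 and 874 for Foxp1-225. Foxp1-230 was at 0% in replicate 1 and 9.13% in replicate 2, and Foxp1-206 at 1.26% and 8.62%, so single shares of this gene differed between pools more than its total did. Foxp4 had 73.9% and 72.2%, and retained-intron transcripts took the remaining 26.1% and 27.8% of TPM. These Foxp4 transcripts rested on at most 11.6 and 9.71 counts each, of the gene's 406 and 407.

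Foxm1 had 1 dominant coding transcript, Foxm1-201, with 79.4% and 80.3% of TPM, and retained-intron transcripts with 20.1% and 19.5%. By estimated counts Foxm1-201 held 2042 and 2182 of the gene's 2115 and 2253. The retained-intron transcripts, of 460 to 821 bases, had at most 38 and 41 counts each. Foxo3 stood apart in kind. All of its TPM was on protein-coding transcripts, but Foxo3-202, with 8.37% and 12.2%, lacks the helix codons. Foxo3-202 rested on 12.22 and 19.45 of the gene's 754 and 791 counts. Foxk2 was less even, with helix-coding shares of 80.7% and 97.4%, where the short transcripts Foxk2-203 and Foxk2-202 held 11.6% and 7.73% in replicate 1 and 0% and 2.62% in replicate 2. These short transcripts rested on about 6 counts each in replicate 1 (5.81 and 5.56). The counts of its coding transcript Foxk2-201 were 564 and 525.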

How the data were processed

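Total RNA (longer than 200 nt, 10 ng per library, per the labels) was sequenced from 2 pools. Per the notes deposited with the files, the authors quantified reads on mm10 with annotation M4. Of aligner, quantifier and strand use, nothing is given in the sources used here. The deposited tables give estimated counts (not normalized), TPM over all rows, posterior means, the bounds of TPM intervals (signal values of unstated level) and, in percent, the share of a gene that each transcript holds. Names, types and coordinates came from GENCODE M21 by identifier without version (42462 of 43346 matched). Of the 146 quantified member transcripts that M21 also holds, 125 had the same length in both annotations. Rows naming no gene held 1.62% and 3.41% of the counts, nearly all spike-ins, and stayed out of library sizes.

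Computed here, with Python 3.11.15, pandas 2.3.3, scipy 1.17.1, Biopython 1.88 and, for TMM factors, edgeR 4.0.16: log2 ratios of TPM + 0.1, exact binomial 95% intervals of count ratios, and calls over 2-fold at a minimum of 100 counts. The call rule was also run on simulated counts. These had the same gene length in both libraries and counting intervals in place of the deposited ones. Shifts in length and the deposited intervals were therefore not tested. Named genes are all members and, per list, up to 4 with the highest level, up to 4 over 2-fold apart, and those at 0. Nkx2-1, Scgb3a2, Nkx6-1, Krt5, Krt14, Bcl6, Shh, Nodal, Aire, Dnah9, Sntn, Cfap53 and the transcripts named were singled out beyond this after their values were seen. Members and lists were chosen with earlier results of these data known. Of 23 lists, the Schwann and liver lists serve as a check: 0 of 4 and 1 of 4 (Apoa1, higher in replicate 2) were called. One member and some reference sequences are not reported here.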

Additional observations from a re-analysis of the deposited data

How the results depend on the processing

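Depth limited the 23 members under 1 TPM, and 1 group of 2 libraries allowed no test. No paired analysis was possible because there is a single group. The number of members more than 2-fold apart was 6 with a count minimum of 10 and 1 (Foxf1) with TPM + 1, against 3. A 1.5-fold limit gave 4, adding Foxn1, which was higher in replicate 2, and the other alternatives gave 3. Scaling to the spike-ins shifted the median log2 ratio of the 18 expressed members to −1.16 and that of all protein-coding genes to −1.10, a difference of −0.06, as with TMM scaling; Foxn1 had −0.19 on that scale, above the shifted median. The 5 highest members held 71.1% of TPM on average and 63.2% of estimated counts. Leaving out either library gave 18 to 21 members at 1 TPM, 7 at 0 counts, 10 separated pairs, 18 coding leading transcripts and a share of 69.3% to 72.9%. Ratios between libraries cannot be had from 1 library. Counts at 1 TPM ranged from 15 (threshold 2 TPM) to 20 (threshold 0.5 TPM). Posterior mean TPM, an alternative added after seeing the data, left all 21 single-member ratios within their counting intervals.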

Other observations

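Some forkhead genes lie side by side in the genome, and their ratios between the pools are given here in that order. On chromosome 8, Foxf1, Foxc2 and Foxl1 follow one another with 28.0 kb and 9.04 kb between them. Their log2 ratios between the pools were −2.27, 0.24 and −0.32, so Foxf1 was the uneven one of the cluster. On chromosome 13, Foxq1, Foxf2 and Foxc1 are 64.8 kb and 175 kb apart, with log2 ratios of −0.51, −2.36 and −0.47. Foxd2 and Foxe3 on chromosome 4, 16.3 kb apart, were both at or under 4 counts in each library.

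Among noncoding genes named after a forkhead neighbour, Foxd2os was at 0.87 and 1.09 TPM from 39 and 53 counts, although Foxd2 had 4 and 0 counts. Foxo6os had 0 counts in both libraries.

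RefSeq start-site windows of 300 bases on GRCm38.p6 were at hand for 28 of the 44 members, 33 windows in all. Their median number of CpG pairs was 22, against 7 over all 32851 windows, and their median GC content 62.7%, against 52.7%. The motif TGTTTAC, on either strand, was in 1 of the 33 member windows (3.03%), that of Foxa1, and in 3.65% of all windows.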
